A study of Mus musculus with 21 samples.

Results

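The comparison described here asked what the inflammatory cytokine interleukin 1 beta (IL1b) changed in fibroblasts that also received transforming growth factor beta 1 (TGFb1). It sets the 3 libraries labelled TGFb1 + IL1b against the 3 labelled TGFb1, 6 of the 21 bulk RNA-seq libraries of the series, chosen by their treatment labels alone. All were made from mouse lung Ly6C+/Sca-1+ fibroblasts kept in vitro, so both groups share the cell type and TGFb1 and differ in IL1b. Neither label names a solvent. Other groups of 3 libraries were used for context: TGFb1 + TNF (tumour necrosis factor), TGFb1 + DMSO and DMSO (dimethyl sulfoxide, a solvent). The labels give no doses, times, passage, mouse strain, sex or age. They do not say whether the 3 libraries of a group came from separate cultures or animals, so p-values measure the spread between these libraries, which may be technical.

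IL1b is a secreted cytokine that binds the receptor IL1R1 with its partner IL1RAP, recruits the adaptor MYD88 and IRAK kinases, and activates the transcription factor NF-kB. NF-kB switches on chemokines, cytokines and its own inhibitors, among them the IkB proteins and the ubiquitin-editing enzyme A20 (Tnfaip3). TGFb1 acts through SMAD transcription factors and is known for turning fibroblasts into contractile, matrix-producing myofibroblasts. Ly6C and Sca-1 are surface proteins of the Ly6 family, and Sca-1 marks fibroblasts around the airways and vessels of the mouse lung.

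Of 52636 genes in the deposited count table, 16197 had enough reads to be tested. Adding IL1b changed 5600 of them (34.6%) at an adjusted p under 0.05 in edgeR's quasi-likelihood test. Of these 2787 rose (17.2%) and 2813 fell (17.4%). Most changes were small: 537 genes (3.32%) rose and 307 (1.90%) fell at least 2-fold. The median log2 fold change of all tested genes was 0.00. It was also near 0 (-0.02) between TGFb1 + DMSO and DMSO, where 62.0% of genes differed, so it does not measure the size of a response. The genes that rose at least 2-fold included inflammatory mediators that were nearly silent with TGFb1 alone, and those that fell at least 2-fold included elastic fibre and small proteoglycan genes. The libraries of the 2 groups did not overlap in 45.5% of tested genes. Among genes past the threshold this held for most, 2666 of the 2787 that rose and 2678 of the 2813 that fell. Levels below are CPM, TMM-scaled counts relative to library size, for the replicates in order. Changes are log2 fold changes ± SE from edgeR with 3 libraries a group, and "rose", "fell", "higher" and "lower" are used of genes past that threshold.

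**Figure D1:**
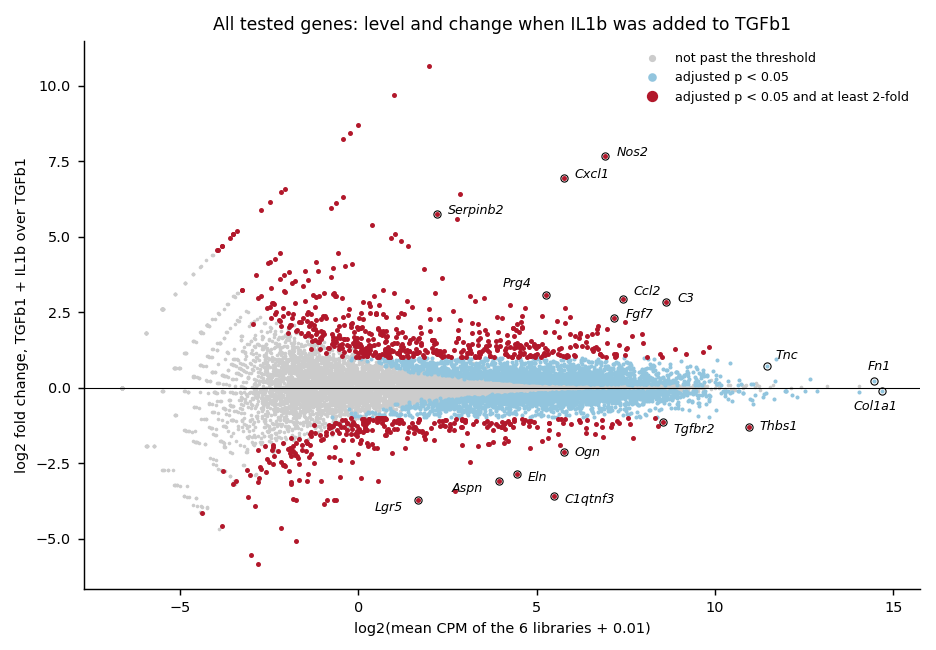
Each point is a tested gene, with its mean level over the 6 libraries on the x axis (log2 of CPM + 0.01) and its log2 fold change on the y axis. Grey points did not pass the threshold, blue points passed it and red points passed it with at least a 2-fold change; Nos2 (7.67) and Cxcl1 (6.95) lie far above most genes of their level, while Col1a1 and Fn1, at the right, lie close to 0.

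The 5 promoters below are shown because they belong to genes that rose and hold a match to the NF-kB consensus. The genes are Cxcl1, a neutrophil chemokine; Tnip3 and Tnfaip3, inhibitors of NF-kB signalling; Steap4, a metalloreductase of the acute phase; and Ccl20, a chemokine for cells bearing CCR6. Each sequence is the 250 bases before the RefSeq start (GRCm38.p6), 5′ to 3′ on the gene's strand, with matches in capitals.
Cxcl1, chr5:90890995-90891244, plus strand: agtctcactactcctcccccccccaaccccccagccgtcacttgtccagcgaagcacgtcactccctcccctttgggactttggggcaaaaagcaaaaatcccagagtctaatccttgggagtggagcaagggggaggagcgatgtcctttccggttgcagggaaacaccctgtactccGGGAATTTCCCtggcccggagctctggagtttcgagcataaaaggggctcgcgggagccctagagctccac
Tnip3, chr6:65590148-65590397, plus strand: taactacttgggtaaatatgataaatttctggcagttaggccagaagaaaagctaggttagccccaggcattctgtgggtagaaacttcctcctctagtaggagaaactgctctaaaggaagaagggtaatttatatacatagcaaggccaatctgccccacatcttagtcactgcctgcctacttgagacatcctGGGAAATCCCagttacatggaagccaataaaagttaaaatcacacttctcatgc
Steap4, chr5:7960222-7960471, plus strand: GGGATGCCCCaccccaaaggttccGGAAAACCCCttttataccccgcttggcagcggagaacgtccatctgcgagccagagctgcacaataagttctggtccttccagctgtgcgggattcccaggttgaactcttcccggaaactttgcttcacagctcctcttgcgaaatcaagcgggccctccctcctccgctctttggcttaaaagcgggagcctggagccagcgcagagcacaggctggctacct
Ccl20, chr1:83116516-83116765, plus strand: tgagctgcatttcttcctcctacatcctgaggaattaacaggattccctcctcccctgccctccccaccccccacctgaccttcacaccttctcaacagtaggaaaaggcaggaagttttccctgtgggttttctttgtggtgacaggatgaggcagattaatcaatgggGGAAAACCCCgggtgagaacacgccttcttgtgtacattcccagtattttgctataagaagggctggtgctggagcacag
Tnfaip3, chr10:19015411-19015660, minus strand: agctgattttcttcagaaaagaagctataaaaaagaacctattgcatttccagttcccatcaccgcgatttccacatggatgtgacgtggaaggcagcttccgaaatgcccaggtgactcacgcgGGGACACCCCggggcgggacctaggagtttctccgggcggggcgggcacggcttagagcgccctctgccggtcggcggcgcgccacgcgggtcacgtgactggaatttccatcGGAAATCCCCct
In Cxcl1 a pair of overlapping matches began 71 and 70 bases before the start. The match lay 54 bases before the start in Tnip3 and 80 in Ccl20. Steap4 held matches 250 and 226 bases before the start, and Tnfaip3 held them at 125 and 12. The motif was the NF-kB consensus, searched by its degenerate letters on both strands in windows of 300 bases, 250 before to 50 after each start. It was found in 4.51% of all 32851 RefSeq promoters, in 5.14% of the 27025 genes they belong to and in 6.43% of the 10822 tested genes with a promoter in the table. Among NF-kB subunit and feedback genes that rose, 9 of 15 with a promoter held it, namely Nfkb2, Rel, Nfkbia, Nfkbie, Bcl3, Tnfaip3, Tnip1, Tnip3 and Cyld. Among chemokines that rose it was 4 of 5 (Ccl9, Ccl20, Cxcl1 and Cxcl10), among acute phase and complement genes 3 of 10 (Ptx3, Steap4 and Serpina3g), and among cytokines and colony-stimulating factors 2 of 10 (Il6 and Csf1). Of the genes that rose at least 2-fold, 37 of 348 held it (10.6%), and of those that fell at least 2-fold 15 of 197 (7.61%). The lists were chosen with earlier results of these data known, and members that did not rise were not counted. The shares within the lists therefore describe the lists and not the response to IL1b. A match describes letters in this window and is not evidence of binding.

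The partner chain of the IL1 receptor rose and the pathway's secreted antagonist fell. Il1r1, the signalling receptor, stood at 54.5, 45.2 and 45.5 CPM with TGFb1 and 52.5, 46.2 and 48.3 CPM with IL1b (0.02 ± 0.06, edgeR adjusted p = 0.884), and over TGFb1 + DMSO it was 0.18 higher (edgeR adjusted p = 0.0173). Its level was 208 CPM in the DMSO libraries. Il1rap, the receptor's partner chain, rose from 19, 21 and 16.1 CPM to 40.9, 37.8 and 38.3 CPM (1.05 ± 0.08, edgeR adjusted p = 8.42e-16), with no overlap between the groups. Il1rn, which encodes the receptor antagonist, fell from 206, 164 and 162 CPM to 61.9, 54.3 and 56 CPM (-1.63 ± 0.10, edgeR adjusted p = 2.16e-09). Il1rl2, the receptor for IL36, rose by 0.79 and Irak4, a kinase next to the receptor, fell by 0.57. Of the 23 receptor, adaptor and kinase genes listed, 22 were tested, 6 rose and 4 fell, with a median of 0.01. The share that changed was 45.5%, against 34.6% of all tested genes. With 6 rises, 4 falls and a median of 0.01, the list as a whole did not move one way. Over TGFb1 + DMSO 5 rose and 8 fell. Il1r2, the decoy receptor, had too few reads to be tested.

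NF-kB subunits and their inhibitors rose almost throughout. All 20 listed were tested; 18 rose and none fell, against 17.2% and 17.4% of all tested genes, with a median log2 fold change of 0.68 against 0.00. Zc3h12a, an RNase that degrades cytokine mRNA, rose from 15.7, 14.8 and 15.9 CPM to 100.4, 92 and 95 CPM (2.63 ± 0.08, edgeR adjusted p = 1.32e-30). Nfkbiz, a nuclear IkB protein needed for secondary NF-kB targets, went from 44.1, 43.4 and 39.6 CPM to 173, 159 and 156 CPM (1.94 ± 0.08). In both genes the lowest library with IL1b lay well above the highest with TGFb1 alone. Relb, a subunit of the noncanonical branch, rose by 1.45 ± 0.08, Tnfaip3 by 1.08 ± 0.07 and Nfkbia, the main cytoplasmic inhibitor, by 0.98 ± 0.07. Nfkbia stood at 41.5, 40.2 and 35.9 CPM with TGFb1 and 79, 74.6 and 78.5 CPM with IL1b. Traf1, a TNF receptor adaptor, had 1 count in the 3 TGFb1 libraries and 26 with IL1b, a ratio of 23.1 with a 95% counting interval from 3.79 to 946. Tnip3 had 0 and 23 counts, at least 6.8-fold higher with IL1b when 3 counts over the TGFb1 group are taken as the floor. Counting intervals and floors cover counting error only.

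**Figure D2:**
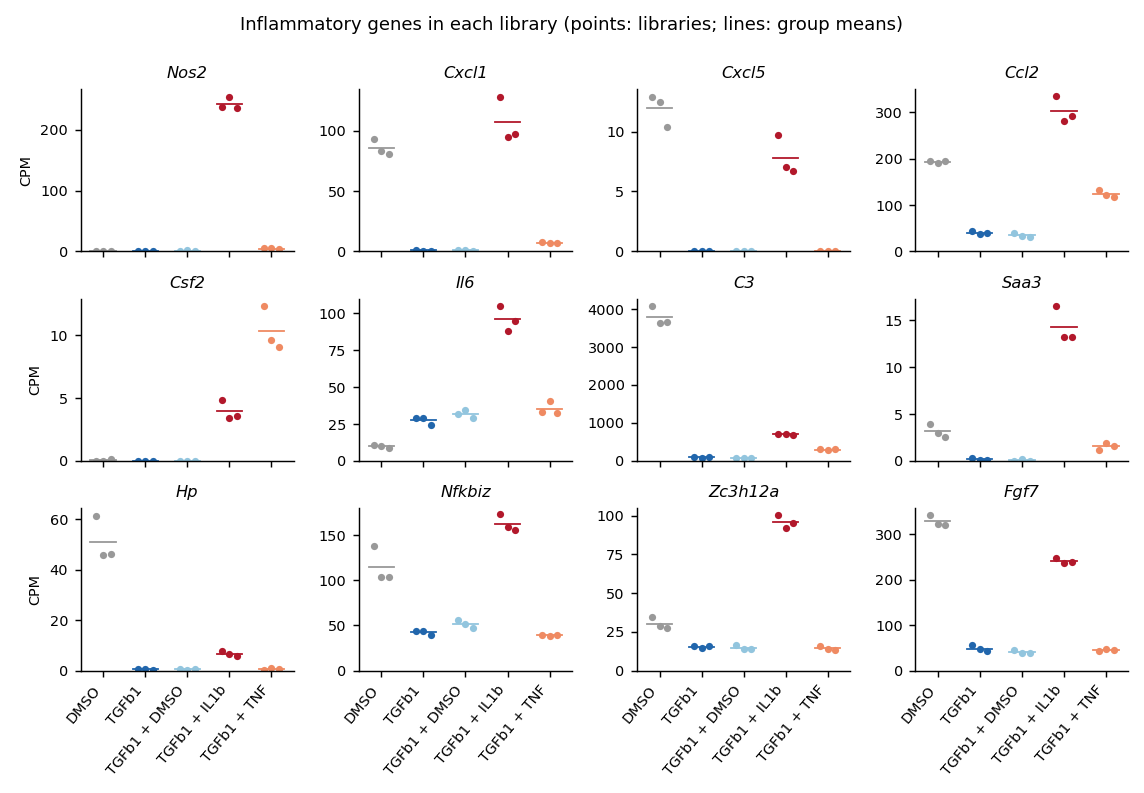
CPM (y axis, linear from 0) of 12 inflammatory genes in each library of 5 groups (x axis), with points for libraries and lines for group means. In all 12 panels the 3 TGFb1 + IL1b libraries lie above the 3 TGFb1 libraries, and in Nos2, Cxcl1, Cxcl5 and Fgf7 the TGFb1 + TNF libraries lie far below those with IL1b.

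Chemokines for neutrophils and monocytes showed some of the largest changes in the table. Cxcl1 went from 1.31, 0.678 and 0.515 CPM with TGFb1 to 128, 94.9 and 97.3 CPM with IL1b (6.95 ± 0.22, edgeR adjusted p = 1.17e-15), a 124-fold difference. Cxcl5, which acts on the same neutrophil receptor, had 0 counts in all 3 TGFb1 libraries and 9.72, 7.02 and 6.69 CPM with IL1b, at least 191-fold higher. The DMSO libraries held 85.5 CPM of Cxcl1 and 11.9 CPM of Cxcl5 on average, so Cxcl1 with IL1b was above and Cxcl5 below that level. Ccl2, the main monocyte chemokine, rose from 43.7, 36.7 and 39 CPM to 335, 282 and 292 CPM (2.93 ± 0.09, edgeR adjusted p = 2.08e-16). Cxcl16, a membrane-bound chemokine whose receptor is CXCR6, rose by 2.17 ± 0.10. Ccl20 had 3 counts with TGFb1 and 54 with IL1b, a ratio of 16 with a 95% counting interval from 5.18 to 79.9. Of 33 chemokines listed, 17 passed the filter on low counts, 10 of them rose and 2 fell, with a median of 0.72. The 2 that fell, named after their values were seen, were Cxcl12, which holds CXCR4-bearing cells in place (748, 778 and 794 to 442, 465 and 480.1 CPM, -0.74 ± 0.05), and Cx3cl1 (-0.53 ± 0.06). A chemokine that passed the filter through the IL1b libraries had to differ, so the count describes the tested members only.

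Cytokines and colony-stimulating factors also rose. Csf2, encoding GM-CSF, had 0 counts in the TGFb1 libraries and 4.86, 3.42 and 3.59 CPM with IL1b, at least 96.7-fold higher. Il1a, the other IL1 receptor agonist, likewise had 0 counts and reached 2.06, 1.51 and 1.44 CPM, at least 40.8-fold higher. Both genes were therefore detected in every IL1b library and in no TGFb1 library. Il6 rose from 29.1, 29.2 and 24.6 CPM to 105, 87.8 and 94.7 CPM (1.79 ± 0.09, edgeR adjusted p = 1.35e-22), and Lif, a cytokine of the same family, from 64.5, 68.8 and 66.3 CPM to 195, 177 and 185 CPM (1.48 ± 0.06). Il11, a family member that TGFb1 is known to induce, rose from 7.61, 5.92 and 7.01 CPM to 16.7, 11.2 and 13.7 CPM (1.02 ± 0.15). These IL6 family members were thus 2.03- to 3.45-fold higher with IL1b, with no overlap between groups. Tnf rose from 7 counts over the group to 137 (4.08 ± 0.71, edgeR adjusted p = 7.03e-06), Tslp, an epithelial-type alarmin, by 2.79 ± 0.37, and Tnfsf11, the osteoclast factor RANKL, from 28 to 128 counts over the group. Il33, another alarmin, stood at 1.54, 1.21 and 0.361 CPM with TGFb1 and 1.4, 1.84 and 1.22 CPM with IL1b, overlapping groups that did not pass (edgeR adjusted p = 0.275); over TGFb1 + DMSO it was 0.95 higher (edgeR adjusted p = 0.0156). Of 28 genes listed 22 were tested, 13 rose and 2 fell, with a median of 0.81. As with the chemokines, a gene that passed the filter through the IL1b libraries had to differ, so this count describes the tested members only. Il13ra2, the decoy receptor for IL13, was among the 15 tested genes of moderate or high level that rose most (2.15, 2.57 and 2.27 to 17, 17.2 and 17.1 CPM, 2.87 ± 0.23).

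Acute phase and complement genes rose together. Saa3, an acute phase apolipoprotein, went from 12 counts over the 3 TGFb1 libraries to 1181, or from 0.346, 0.0714 and 0.0515 CPM to 16.5, 13.2 and 13.2 CPM (6.41 ± 0.36, edgeR adjusted p = 2.86e-19); it belongs to a family of close copies, between which reads may be divided. Steap4 rose from 0.192, 0.214 and 0.155 CPM to 5.19, 5.11 and 4.78 CPM (4.69 ± 0.37), and Hp, encoding haptoglobin, from 0.423, 0.5 and 0.361 CPM to 7.77, 6.41 and 5.86 CPM (3.92 ± 0.30). Lcn2, an iron-siderophore-binding protein, had 0 counts with TGFb1 and 164 with IL1b, at least 48.5-fold higher. All of these were near or at 0 with TGFb1 and were counted in every IL1b library. C3, the central complement protein, was abundant by comparison: 107, 90.2 and 95.5 CPM with TGFb1 and 700.3, 711 and 683 CPM with IL1b (2.84 ± 0.05, edgeR adjusted p = 2.3e-30). Its mean in the DMSO libraries was 3787 CPM, so the IL1b libraries remained below the cells that received solvent only. Of 27 genes listed 19 were tested, 13 rose and 2 fell (C4b, a complement protein, and Masp1, a protease of the lectin pathway, both named after their values were seen), with a median of 1.03. Here too a gene that passed the filter through the IL1b libraries had to differ, so the count describes the tested members only. Masp1 did not pass over TGFb1 + DMSO (0.09, edgeR adjusted p = 0.421). Between TGFb1 + DMSO and DMSO, 18 of the same 19 genes were lower with TGFb1.

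Among enzymes of small mediators, Nos2 had the highest fold change of any gene with a mean of at least 2 on the log2 CPM scale. This inducible nitric oxide synthase stood at 1.46, 0.714 and 1.49 CPM with TGFb1 and at 237, 254 and 236 CPM with IL1b (7.67 ± 0.15, edgeR adjusted p = 1.84e-24), a 203-fold difference. The gene lies at chr11:78920787-78960254 (GRCm38, GENCODE M21). In the DMSO libraries it was at 0.156 CPM. Gch1, which makes the cofactor that nitric oxide synthases need, rose from 2.34, 1.64 and 3.71 CPM to 11.3, 11.6 and 12.2 CPM (2.23 ± 0.18), and Ass1, which regenerates arginine, by 1.22 ± 0.06. Arg1, an arginase that consumes arginine, fell from 2.73, 1.11 and 1.03 CPM to 0.368, 0.432 and 0.252 CPM (-2.20 ± 0.52, edgeR adjusted p = 0.00057); against TGFb1 + DMSO it did not pass (edgeR adjusted p = 0.265). Ptgs2, the inducible cyclooxygenase, rose from 123, 105 and 107 CPM to 406, 368 and 379 CPM (1.78 ± 0.09), while Ptges, a prostaglandin E synthase, fell by 0.20 and did not pass over TGFb1 + DMSO (edgeR adjusted p = 0.422) or without TGFb1 replicate 1 (edgeR adjusted p = 0.159), TGFb1 + IL1b replicate 1 or TGFb1 + IL1b replicate 2. Of 27 genes listed 22 were tested, 9 rose and 2 fell, and over TGFb1 + DMSO 12 rose and none fell. The oxidant defence list is not limited to defence genes, since it includes the oxidase gene Cybb, which had too few reads to be tested. Of the 23 tested genes in that list, 13 were higher and 4 lower. Sod2, the mitochondrial superoxide dismutase, rose from 44.2, 41.9 and 45.4 CPM to 132, 120.0 and 121 CPM (1.51 ± 0.06), Slc7a11, the cystine importer, by 1.78 ± 0.12 and Mt2, a metallothionein, by 1.36 ± 0.10. Nox4, an oxidase induced by TGFb1, fell from 35.5, 43.8 and 37.2 CPM to 20.1, 19.2 and 20.9 CPM (-0.95 ± 0.09).

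Of 31 growth factors listed 30 were tested, 15 rose, 6 fell and 9 did not pass, with a median of 0.44. Fgf7, a mitogen for epithelial cells, went from 56, 46.3 and 42.8 CPM to 247, 236 and 239.6 CPM (2.31 ± 0.07, edgeR adjusted p = 9.25e-21), where the DMSO libraries held 328 CPM on average. The EGF receptor ligands Ereg (12, 12.2 and 10.5 to 64, 57.5 and 58.2 CPM, 2.36 ± 0.09) and Areg (28 to 213 counts over the group, 2.74 ± 0.36) both rose. Hgf, a ligand of the receptor MET, rose by 1.10 ± 0.07, and Vegfa, the vessel growth factor, from 985, 1008 and 979.9 CPM to 1736, 1770.2 and 1714 CPM (0.81 ± 0.04). Fgf21 rose by 2.11 ± 0.11 and Gdf15 by 1.89 ± 0.17, both secreted factors known from cell stress. The 6 that fell, named after their values were seen, were Igf1 (-1.31 ± 0.12), Angpt1 (-1.29 ± 0.21), Pdgfd, Fgf18, Nrg1 and Vegfb, of which Nrg1 did not pass over TGFb1 + DMSO (edgeR adjusted p = 0.999). On the receptor side more fell than rose, with 4 of 24 tested genes higher and 12 lower. Of all tested genes 17.2% rose and 17.4% fell. Pdgfra, a receptor that marks resident fibroblasts, fell from 454, 415 and 404 CPM to 217, 207 and 208 CPM (-1.01 ± 0.04, edgeR adjusted p = 1.1e-25), and Pdgfrb by 0.93 ± 0.04. The IGF-binding proteins divided, with Igfbp5 higher (1.93 ± 0.12) and Igfbp3 lower (-1.19 ± 0.05).

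ATF4, the transcription factor of the amino acid and integrated stress response, and its known targets rose. Atf4 went from 738, 725 and 734 CPM to 1407, 1419.8 and 1327 CPM (0.92 ± 0.04, edgeR adjusted p = 1.77e-24). All 23 genes listed were tested; 21 rose and none fell, with a median of 0.75, and against TGFb1 + DMSO 22 rose and 1 fell. Over that control 39.3% of all tested genes changed, 19.6% higher and 19.8% lower, and 4.26% rose and 2.01% fell at least 2-fold. Ddit3, encoding CHOP, rose from 31.3, 35.6 and 39.8 CPM to 109.8, 109 and 109 CPM (1.63 ± 0.09). Cth, which makes cysteine, rose by 1.40 ± 0.08, Chac1, which degrades glutathione, by 1.32 ± 0.10, Psph, which completes serine synthesis, by 1.10 ± 0.07 and Trib3, a pseudokinase, by 1.09 ± 0.08. In all of these the groups did not overlap. Genes of the endoplasmic reticulum moved otherwise: 5 of 26 rose and 15 fell, although without 1 of the TGFb1 libraries (replicate 1) 9 fell, and against TGFb1 + DMSO 8 fell.

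Interferon-stimulated genes rose over TGFb1, but this count depended on the control. All 39 listed were tested; 31 rose and none fell, with a median of 0.90. Rsad2, an antiviral enzyme, stood at 12.2, 13.7 and 8.45 CPM with TGFb1 and 32.6, 33.7 and 29.2 CPM with IL1b (1.46 ± 0.32, edgeR adjusted p = 0.00203). In the TGFb1 + DMSO libraries it was at 26.1, 17.9 and 19.8 CPM, and against them its difference of 0.59 did not pass (edgeR adjusted p = 0.141). Over the list, 11 of 39 rose and none fell against TGFb1 + DMSO, with a median of 0.42. Irf7, the interferon response regulator, rose against both controls (1.39 ± 0.31 and 0.82), as did Ifi44 (1.64 ± 0.29 and 0.74) and Gbp5, a guanylate-binding protein (1.80 ± 0.33 and 1.03). The count over TGFb1 was 20 without TGFb1 + IL1b replicate 1, and also 20 without TGFb1 replicate 3. The ISRE core, the interferon-response motif, searched on both strands, lay in the promoters of 14 of 24 members that rose over TGFb1, against 3.71% of tested genes. The list was chosen as interferon-stimulated genes and members that did not rise were not counted, so this share describes the list and not the response to IL1b. Several of these genes are members of families of similar copies, between which reads may be divided.

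More antigen presentation genes rose than fell, with fewer rises over TGFb1 + DMSO. Of 26 listed 21 were tested, 13 rose and none fell over TGFb1, and 9 rose, 1 fell and 11 did not pass over TGFb1 + DMSO. H2-M3, a class I molecule, went from 6.53, 5.89 and 6.9 CPM to 15, 15.3 and 13.3 CPM (1.18 ± 0.12, edgeR adjusted p = 1.92e-11), and H2-Q4 rose by 1.50 ± 0.22; class I genes are similar to one another and counts may be divided between them. Cd74, the class II invariant chain, rose by 0.74 ± 0.10. Psmb8, an immunoproteasome subunit, rose over TGFb1 (1.09 ± 0.32) and did not pass over TGFb1 + DMSO (0.45, edgeR adjusted p = 0.243) or without TGFb1 replicate 3 (0.77, edgeR adjusted p = 0.066). Among adhesion molecules, 9 of 14 tested rose and 4 fell. Icam1, a usual NF-kB target, was close to 0 in every group used here, with 7 counts over the TGFb1 libraries and 3 with IL1b (edgeR adjusted p = 0.428). Vcam1 rose slightly (0.17 ± 0.04), and did not pass over TGFb1 + DMSO.

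Of the fibrillar collagen and matrix genes more fell than rose over TGFb1, while the main collagen chains stayed near their TGFb1 levels. Col1a1, the main collagen chain, stood at 27124, 27279.8 and 28759.7 CPM with TGFb1 and 25326, 25901 and 24752 CPM with IL1b (-0.13 ± 0.04, edgeR adjusted p = 0.00449). It did not pass without TGFb1 replicate 3 (-0.10, edgeR adjusted p = 0.0501). The 1.09-fold difference was not seen against TGFb1 + DMSO (-0.00, edgeR adjusted p = 1). Col3a1 stood at 16942, 16084 and 16426 CPM with TGFb1 and 17469.9, 16863 and 16796 CPM with IL1b, groups that overlapped and did not pass (0.05 ± 0.04, edgeR adjusted p = 0.338). Some glycoproteins of the provisional matrix rose further. Tnc, encoding tenascin C, went from 2308, 2019.9 and 2046 CPM to 3658, 3399.9 and 3309 CPM (0.70 ± 0.08), Fn1, encoding fibronectin, rose by 0.21 ± 0.04 and Postn, encoding periostin, by 0.28 ± 0.04. Col5a3, a collagen V chain, rose from 494, 527 and 531 CPM to 1248, 1355 and 1343 CPM (1.35 ± 0.04, edgeR adjusted p = 6.33e-31). Spp1, the secreted phosphoprotein osteopontin, rose from 2605, 2125 and 2082 CPM to 4755, 4270.1 and 4147 CPM (0.95 ± 0.09). In the other direction, Thbs1, a matricellular protein that can activate latent TGFb, fell from 2947, 2739 and 2759 CPM to 1234, 1142 and 1084 CPM (-1.29 ± 0.04). Col11a1 fell by 1.21 ± 0.06 and Col8a2 by 0.90 ± 0.11. Of 27 matrix genes listed 26 were tested, 5 rose and 15 fell with a median of -0.12, and against TGFb1 + DMSO 8 rose and 10 fell.

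**Figure D3:**
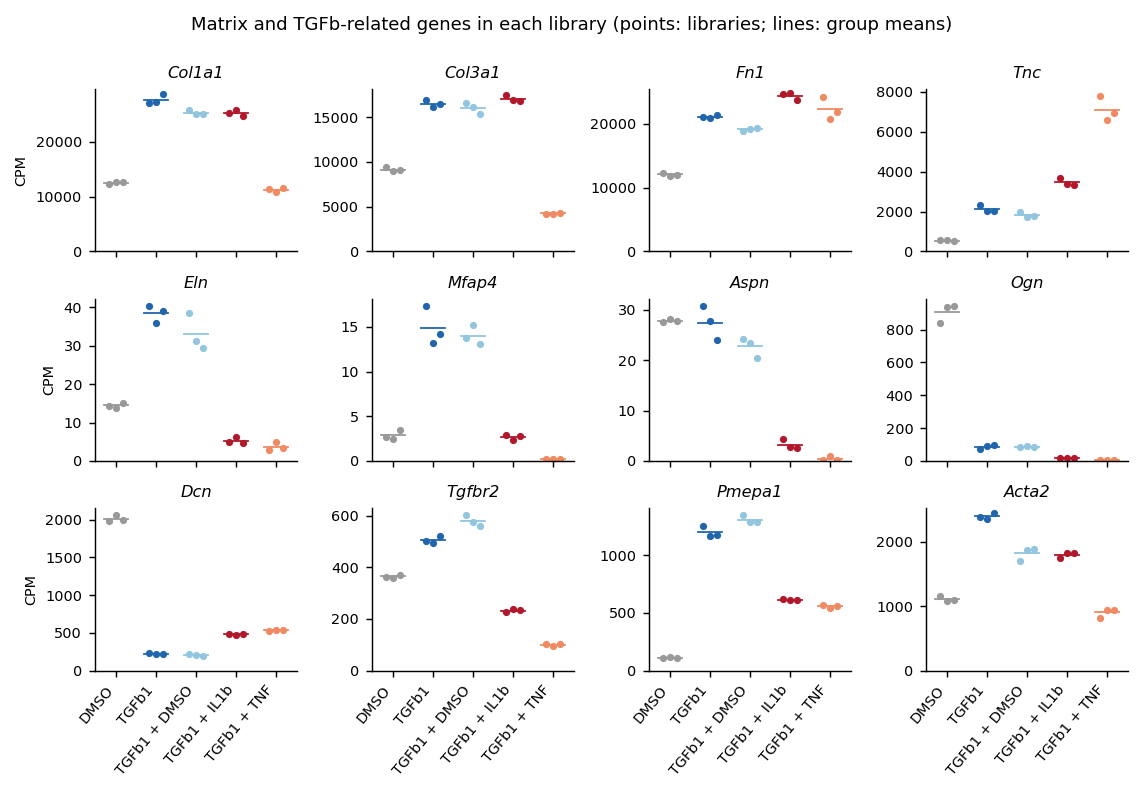
CPM (y axis, linear from 0) of 12 matrix and TGFb-related genes in each library of 5 groups (x axis), with points for libraries and lines for group means. Col1a1 and Col3a1 stay near their TGFb1 levels with IL1b, Eln, Mfap4, Aspn and Ogn lie far below them, and Acta2 with IL1b lies at the level of TGFb1 + DMSO.

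Elastic fibre and small proteoglycan genes showed larger falls. Eln, encoding elastin, went from 40.4, 35.8 and 39.1 CPM to 4.97, 6.16 and 4.64 CPM (-2.87 ± 0.13, edgeR adjusted p = 1.43e-23), a 7.3-fold fall. Mfap4, a microfibril protein, fell from 17.3, 13.2 and 14.2 CPM to 2.87, 2.34 and 2.84 CPM (-2.47 ± 0.15). With IL1b both stood at or below their DMSO means of 14.5 and 2.87 CPM. The fall was not shared by the whole list: of 17 genes, all tested, 8 fell and 1 rose with a median of -0.12, 8 fell and 5 rose over TGFb1 + DMSO, and Fbn2, Emilin1 and Ltbp1 fell by 0.71, 0.46 and 0.43. Among small leucine-rich proteoglycans, Aspn (asporin) fell from 30.7, 27.7 and 24 CPM to 4.27, 2.77 and 2.66 CPM (-3.09 ± 0.17, edgeR adjusted p = 2.33e-13) and Ogn (osteoglycin) from 74.2, 91.4 and 98.4 CPM to 20.2, 20.2 and 19.9 CPM (-2.13 ± 0.09). Fmod (fibromodulin), which regulates collagen fibril assembly, fell from 135, 117 and 119 CPM to 44.1, 46.1 and 40.4 CPM (-1.51 ± 0.06). Dcn (decorin), a family member known to bind TGFb, was the only tested member that rose over TGFb1. It went from 236, 217 and 221 CPM to 489, 475 and 484 CPM (1.10 ± 0.04, edgeR adjusted p = 7.33e-28). Of 14 listed 13 were tested, 8 fell and 1 rose with a median of -1.39, and against TGFb1 + DMSO 8 fell and 2 rose. C1qtnf3, a secreted C1q-like protein, fell from 83.2, 82.9 and 82 CPM to 7.44, 7.24 and 6.04 CPM (-3.58 ± 0.11), and the CCN family proteins Ccn3 (-2.01 ± 0.08) and Ccn5 (-1.91 ± 0.08) also fell.

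Of matrix proteases and inhibitors 34 were listed and 31 tested. Of those tested 6 rose and 16 fell, where 17.2% of all tested genes rose and 17.4% fell. Serpinb2, a plasminogen activator inhibitor, rose from 12 to 745 counts over the group (5.75 ± 0.31, edgeR adjusted p = 2.58e-21), and Timp1, an inhibitor of metalloproteinases, from 527, 477 and 478 CPM to 1121, 1150.1 and 1089.5 CPM (1.18 ± 0.04). Timp3 fell from 2226, 2704 and 2725 CPM to 1602, 1829.7 and 1764 CPM (-0.56 ± 0.09). The proteases themselves divided. Mmp9, a gelatinase, rose from 8.57, 7.1 and 9.48 CPM to 31.2, 25.1 and 27.1 CPM (1.75 ± 0.09), whereas the collagenase Mmp13 fell from 51.1, 45.6 and 40.4 CPM to 21.3, 16.3 and 18.5 CPM (-1.29 ± 0.13), the stromelysin Mmp3 fell by 0.81 ± 0.13 and the aggrecanase-family member Adamts15 fell by 3.09 ± 0.33. Prg4, encoding the lubricating proteoglycan lubricin, rose from 8.18, 7.42 and 8.81 CPM to 65, 66.5 and 73 CPM (3.08 ± 0.11). Tnfaip6, a hyaluronan-binding protein, rose by 2.37 ± 0.10.

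Some components of TGFb signalling fell and others rose. Tgfbr2, the ligand-binding receptor, went from 504, 496 and 521 CPM to 226, 238 and 233 CPM (-1.13 ± 0.04, edgeR adjusted p = 3.79e-28), a 2.18-fold fall with no overlap. Tgfb3, a ligand, fell from 158, 147 and 158 CPM to 71.6, 74.9 and 71.7 CPM (-1.08 ± 0.05), and Pmepa1, a target that restrains the pathway, from 1252, 1173 and 1181 CPM to 623, 616 and 609.8 CPM (-0.96 ± 0.04). All of these fell against TGFb1 + DMSO as well, by 1.32, 1.11 and 1.09. Inhba, the activin A subunit, rose from 357, 379 and 369 CPM to 818, 781 and 795 CPM (1.12 ± 0.05), and Tgif1, a SMAD corepressor, by 0.94 ± 0.05. Ccn2, a standard TGFb target, stood at 1451, 1595 and 1566 CPM with TGFb1 and 1432, 1500.1 and 1464 CPM with IL1b and did not pass (-0.07 ± 0.06, edgeR adjusted p = 0.417). Over TGFb1 + DMSO Ccn2 was 0.40 higher (edgeR adjusted p = 9.36e-06), so this result depended on the control. Of 25 target and feedback genes, all tested, 4 rose and 15 fell over TGFb1, and 7 rose and 8 fell over TGFb1 + DMSO. Of 22 ligands, receptors and SMADs, all tested, 4 rose and 7 fell over TGFb1, and 7 rose and 6 fell over TGFb1 + DMSO. Without TGFb1 + IL1b replicate 3 the number that fell over TGFb1 was 4. Chrdl1, a BMP antagonist, fell from 86 to 7 counts over the group (-3.71 ± 0.55).

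Contractile genes were lower than with TGFb1 alone but mostly not lower than with TGFb1 + DMSO. Acta2, the smooth muscle actin that defines myofibroblasts, stood at 2384, 2355 and 2438 CPM with TGFb1, 1751, 1821 and 1818 CPM with IL1b and 1705, 1869.6 and 1883 CPM with TGFb1 + DMSO. The fall of 0.41 ± 0.05 over TGFb1 (edgeR adjusted p = 1.73e-08) was therefore a difference of -0.02 over TGFb1 + DMSO (edgeR adjusted p = 0.811). Cnn1, encoding calponin, fell by 0.56 ± 0.06 over TGFb1 and stood level with TGFb1 + DMSO (0.00, edgeR adjusted p = 1), and Tagln fell by 0.27 ± 0.07 and did not pass over TGFb1 + DMSO (0.12, edgeR adjusted p = 0.186). Other members fell against both: Myl9, a myosin light chain, by 0.99 and 0.54, Mylk, the kinase that activates it, by 1.16 and 0.76, and Palld, an actin-bundling protein, by 0.68 and 0.52. Of 33 listed 32 were tested, 3 rose and 22 fell over TGFb1, and 9 rose and 9 fell over TGFb1 + DMSO. The number that rose over TGFb1 was 1 without TGFb1 + IL1b replicate 2, TGFb1 replicate 2 or TGFb1 replicate 3.

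**Figure D4:**
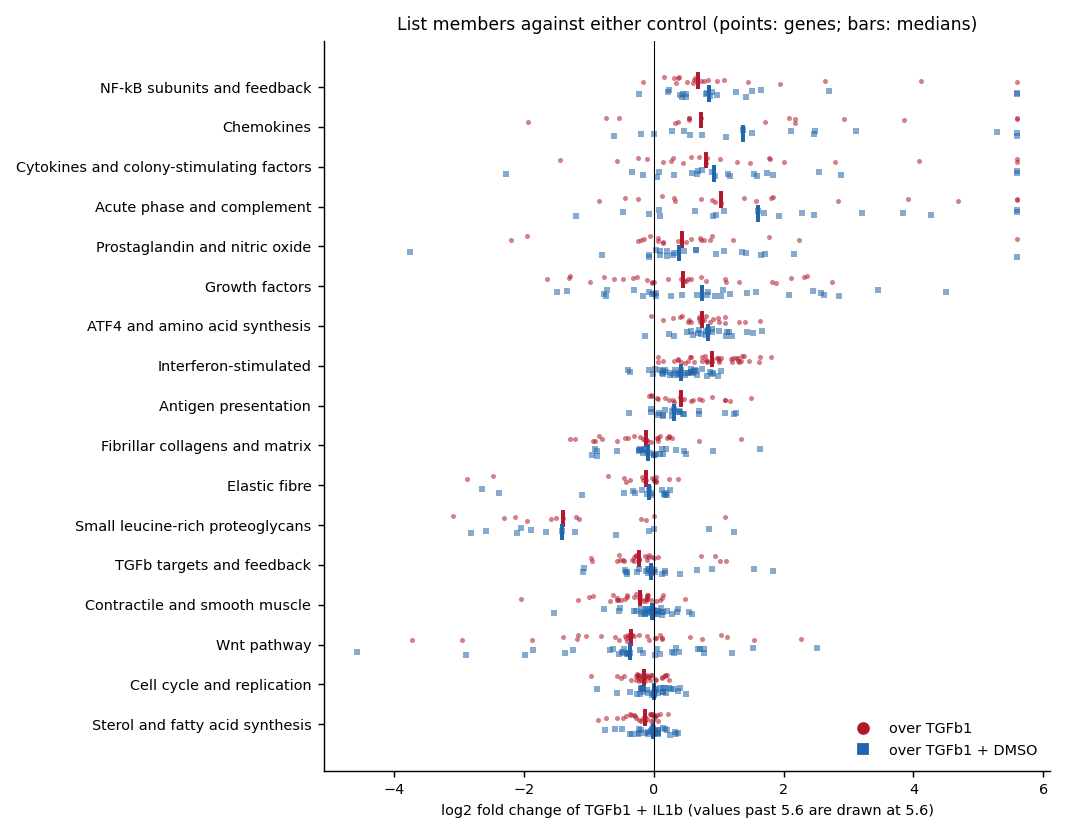
Log2 fold change (x axis) of the tested members of 17 gene lists (y axis) in TGFb1 + IL1b over TGFb1 (red circles) and over TGFb1 + DMSO (blue squares), with points for genes and bars for medians. The NF-kB, chemokine, cytokine, acute phase and ATF4 medians lie above 0 with either control, and the interferon median falls from 0.90 to 0.42.

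Smaller groups moved as follows. Of Wnt pathway genes 33 of 36 were tested, 6 rose and 14 fell over TGFb1, and 10 rose and 16 fell over TGFb1 + DMSO. Over TGFb1 17.2% of all tested genes rose and 17.4% fell. Lgr5, the R-spondin receptor, fell from 5.45, 5.42 and 6.7 CPM to 0.295, 0.612 and 0.395 CPM (-3.73 ± 0.30), Wnt4, a ligand, fell by 2.95 ± 0.46 and Tnfrsf19, a TNF receptor family member, rose by 2.27 ± 0.20. Among transcription factors, Atf3, a stress-induced AP-1 partner, rose from 18.9, 21.6 and 19.9 CPM to 111, 99.8 and 94.5 CPM (2.34 ± 0.13), Meox1, a homeobox factor of activated fibroblasts, rose by 1.84 ± 0.12, Hic1, which marks quiescent mesenchymal cells, fell by 1.42 ± 0.07 and Fos fell by 0.97 ± 0.17. Of the adventitial and Ly6 list 24 of 26 were tested. Over TGFb1 6 rose and 10 fell (median -0.17), and over TGFb1 + DMSO 9 rose and 7 fell (median 0.21). Ly6a, which encodes Sca-1, fell by 0.19 ± 0.07 over TGFb1 and was 0.19 higher over TGFb1 + DMSO (edgeR adjusted p = 0.0291), so its direction turned with the control. Over TGFb1 Ly6a did not pass without TGFb1 replicate 1 (-0.10, edgeR adjusted p = 0.311), TGFb1 + IL1b replicate 2 or TGFb1 + IL1b replicate 3. Cell cycle genes, 34 tested, showed 2 rises and 17 falls over TGFb1 (1 rise without TGFb1 + IL1b replicate 1, TGFb1 + IL1b replicate 3 or TGFb1 replicate 2) and 8 rises and 11 falls over TGFb1 + DMSO; Ccne2, a cyclin of DNA replication, fell by 0.97 and 0.87. Sterol and fatty acid synthesis genes, 29 tested, showed no rise and 13 falls over TGFb1, and 6 rises and 8 falls over TGFb1 + DMSO; Hmgcs1, an early enzyme of cholesterol synthesis, fell by 0.74 and 0.59. Of 17 tested integrins 3 rose and 5 fell, and of 10 tested mitochondrially encoded genes 1 rose (none without TGFb1 + IL1b replicate 3 or TGFb1 replicate 1) and none fell, and over TGFb1 + DMSO none rose and 3 fell, where 34.6% of all tested genes changed over TGFb1.

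The genes that TGFb1 itself moved were defined in libraries this comparison did not use, TGFb1 + DMSO against DMSO, where 10037 of 16197 tested genes differed (62.0%). There 1307 genes (8.07%) were raised and 2224 (13.7%) lowered at least 2-fold. Of the raised genes, IL1b raised 351 further (26.9%) and lowered 288 (22%), with a median change of 0.04. Of the lowered genes, IL1b raised 307 (13.8%) and lowered 411 (18.5%), with a median of -0.04, and among the other 12666 genes the shares were 16.8% and 16.7%. The classes differed in level, with median log2 CPM of 3.43 (raised), 1.22 (lowered) and 4.22 (others), which limits a comparison of these shares. By at least 2-fold, IL1b raised 134 and lowered 65 of the raised genes. It raised 140 and lowered 138 of the lowered genes, and raised 263 and lowered 104 of the others. Neither class therefore moved one way as a whole. Within them, Cxcl1, C3, Fgf7, Hp and Steap4 were low with TGFb1 and higher again with IL1b, whereas C1qtnf3 was at 1.4 CPM with DMSO and 91.5, 86.9 and 86.7 CPM with TGFb1 + DMSO and fell with IL1b. Tnc, Col5a3, Spp1, Vegfa and Inhba were higher with TGFb1 and higher still with IL1b.

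IL1b and TNF, which both activate NF-kB, were then compared directly on the TGFb1 background, with the same IL1b libraries as above. Between TGFb1 + IL1b and TGFb1 + TNF 7706 of 16197 genes differed (47.6%), with 4008 higher (24.7%) and 3698 lower (22.8%) with IL1b, and 1116 (6.89%) higher and 359 (2.22%) lower by at least 2-fold. Of the 537 genes that rose at least 2-fold with IL1b, 145 were higher with IL1b than with TNF, 176 were lower and 216 did not differ past the threshold, which does not show that they were equal. Of the 307 that fell at least 2-fold, 147 were higher with IL1b than with TNF and 19 were lower. Nos2 was at 4.67 CPM with TNF against 237, 254 and 236 CPM with IL1b (difference 5.70 ± 0.12, edgeR adjusted p = 4.96e-24). Cxcl1 was at 7.37 CPM with TNF (3.86 ± 0.15), Cxcl5 at 0.0124 CPM, Zc3h12a at 14.4 CPM (2.74 ± 0.08) and Nfkbiz at 39.1 CPM (2.06 ± 0.08). These 5 genes were all far higher with IL1b. Csf2 (10.3 CPM with TNF, -1.38 ± 0.24), Serpinb2 (17.5 CPM, -0.96 ± 0.17) and Prg4 (243 CPM, -1.83 ± 0.09) were higher with TNF, and Relb and Tnfaip3 were too, by 0.42 and 0.22. Mmp9 was at 383 CPM with TNF (-3.78 ± 0.07), the gene furthest on the TNF side by the rule used for naming, and Hmga2, a chromatin protein, was at 115 CPM (-2.84 ± 0.09).

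Most matrix genes differed between the cytokines. Of 26 tested matrix genes 23 were higher with IL1b than with TNF and 3 were lower, with a median difference of 1.10 on the log2 scale against 0.01 over all genes. Col1a1 averaged 11298 CPM and Col3a1 4241 CPM with TNF, differences of 1.16 ± 0.04 and 2.01 ± 0.04, and Fndc1, a fibronectin-domain matrix protein, was at 0.638 CPM with TNF against 63.3, 54.6 and 52 CPM with IL1b (6.46 ± 0.20). Acta2 was at 901 CPM with TNF (0.99 ± 0.05). Elastic fibre genes (14 higher and 1 lower of 17, median 0.60), small leucine-rich proteoglycans (8 higher and 1 lower of 13, median 1.19) and acute phase and complement genes (15 higher and none lower of 19, median 1.77) leaned the same way. Tnc, one of the matrix genes, and Spp1, outside that list, were higher with TNF, at 7094 and 9789 CPM. Cell cycle genes were mostly lower with IL1b than with TNF, 25 lower and 2 higher of 34. Ccn5, at 0.427 CPM with TNF (5.61 ± 0.17), and Sprr2b, at 0.0483 CPM (8.11 ± 0.35), were also among the genes furthest on the IL1b side.

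**Figure D5:**
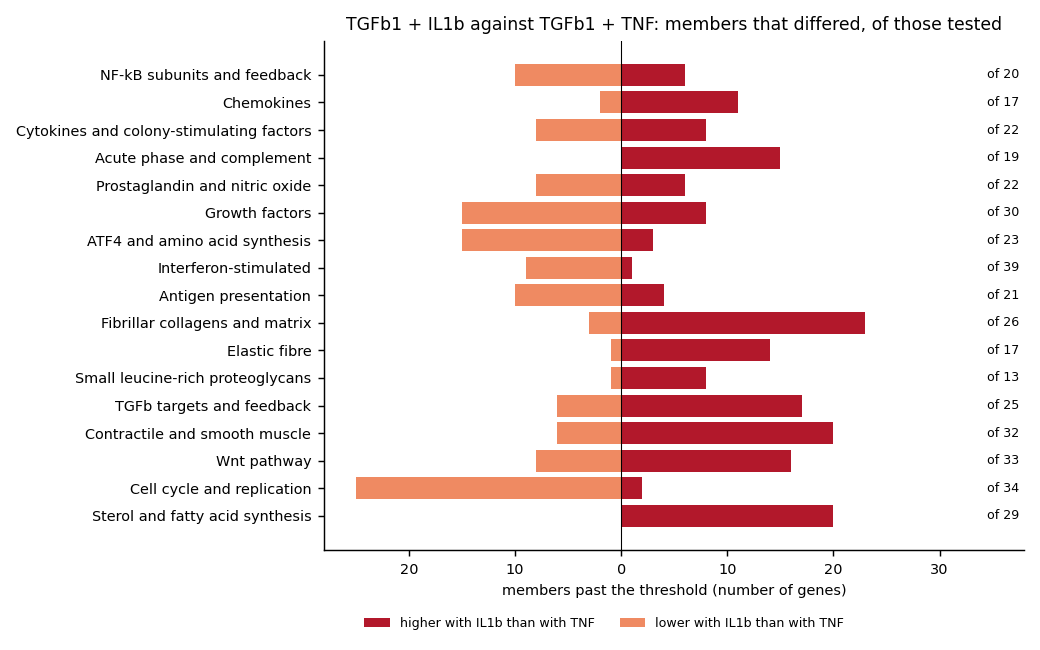
For 17 gene lists (y axis), bars give the number of tested members (x axis) that were higher (right, red) or lower (left, orange) with TGFb1 + IL1b than with TGFb1 + TNF, with the number tested at the right. Of 26 matrix genes 23 are higher with IL1b, and of 34 cell cycle genes 25 are higher with TNF.

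The 6 libraries held 19796379 to 28445604 counts, and on the first principal component, with 55.62% of the variance, the TGFb1 libraries (36.0 to 37.6) and the TGFb1 + IL1b libraries (54.9 to 55.4) lay close together within each group. Against TGFb1 + DMSO in place of TGFb1, 2246 of the 2787 genes that rose did so again (80.6%) and 4 fell, and 2205 of the 2813 that fell did so again (78.4%) and 8 rose. All 11 fibroblast markers were detected, and 1 rose (Dcn) and 8 fell with IL1b, among them Pdgfra, Pdgfrb, Thy1 (-0.52 ± 0.06) and Vim (-0.22 ± 0.04). Lum was close to 0, at 0.499, 0.357 and 0.309 CPM with TGFb1 and 0.258, 0.18 and 0.0719 CPM with IL1b. Thy1 (0.04, edgeR adjusted p = 0.586) and Vim (-0.00, edgeR adjusted p = 0.997) did not pass over TGFb1 + DMSO. The markers' sum, most of it Col1a1, Col1a2 and Col3a1, was 65895 to 68269.6 CPM with TGFb1 and 61208 to 62804 CPM with IL1b. Summed immune markers were at 8.74 to 11.1 CPM with TGFb1 and 14.5 to 18.1 CPM with IL1b, of which Cd14 was the largest; 1 of the 12, Cd14, rose (0.80 ± 0.16), and Ptprc, Cd3e, Adgre1, S100a9 and Nkg7 had 0 counts in both groups. Summed endothelial (4.99 to 6.44 against 5.22 to 6.66 CPM), epithelial (1.29 to 2.14 against 1.8 to 2.48 CPM) and mesothelial markers (27.9 to 32.3 against 30.3 to 33.2 CPM) had overlapping ranges, with 1 endothelial and 1 epithelial marker higher and 1 endothelial marker lower. Of 8 tested mural markers 1 rose and 5 fell; their sum, most of it Pdgfrb (also a fibroblast gene), went from 1334 to 1381 CPM down to 825 to 856 CPM. In bulk libraries fewer cells of a kind and less RNA per cell cannot be told apart, and what these marker shifts contribute to the gene changes was not tested.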

How the data were processed

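The authors deposited raw read counts per gene for 21 libraries of 7 groups, 3 each; per the labels' protocols RNA was extracted with RNeasy and libraries were made with the Illumina TruSeq Stranded Total RNA kit. The submitters' processing notes name GRCh38 and GRCm38 without roles. Aligner, counter and strand setting were not given in the sources used here. Gene names were taken from GENCODE M21 (52489 of 52636 genes; 147 have no symbol). Groups came from the labels; replicates were numbered in accession order and pair nothing. Counts were scaled by TMM and tested with edgeR 4.0.16 (R 4.3.3; filterByExpr, robust quasi-likelihood fit, 1 coefficient a group over all 21 libraries), with Benjamini-Hochberg adjustment over 16197 genes and a threshold of 0.05. SE is the fold change divided by the root of F. edgeR's common coefficient of variation between replicates came to 0.05815. The steps were tested on simulated data. Alternatives used DESeq2 1.42.0, limma 3.58.1 voom, RLE scaling, other filters, fewer libraries and the TGFb1 + DMSO control. Promoters are from RefSeq (GRCm38.p6). Lists and members were chosen with earlier results of these data known. Genes were named by rule: the 15 highest and 15 lowest fold changes among called genes with at least 2 log2 CPM and no overlap, the 10 largest rises and falls in mean CPM, up to 5 called members of each of 41 lists with the largest changes, a fixed list, the 6 furthest genes each way between IL1b and TNF, and markers. Genes holding a promoter motif were named after their values were seen. Some genes within this rule are not reported here.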

Additional observations from a re-analysis of the deposited data

How the results depend on the processing

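Under DESeq2, limma voom, RLE scaling, no filter, a filter of at least 1 CPM, removal of mitochondrial and rRNA genes, and a fit of the compared libraries alone, each count over all tested genes, or over the genes TGFb1 raised or lowered, stayed within 1.5 times the value given above. Among counts of list members that rose, the contractile count was 1 and the cell cycle count 1 with DESeq2, the cell cycle count was 4 with the compared libraries alone, and the mitochondrially encoded count was 2 with limma voom and 0 with the compared libraries alone or without mitochondrial and rRNA genes. With one library left out, the count of genes that rose with IL1b was 2358 to 2573, of those that fell 2326 to 2526, of those that rose at least 2-fold 473 to 539 and of those that fell at least 2-fold 266 to 301. Between IL1b and TNF 3581 to 3721 were higher and 3277 to 3461 lower. With no minimum fold for the TGFb1 response, IL1b raised 1206 and lowered 1054 of the genes TGFb1 raised, and raised 828 and lowered 1142 of those it lowered; this alternative takes in more genes. Counts of list members depended most on the control. Of 82 such counts, rises and falls apart, 54 stayed within 1.5 times with TGFb1 + DMSO as the control and 28 did not. Under each other processing named above, at most 2 of the 82 did not. Over TGFb1 + DMSO the sign turned for Ccn2 (0.40), Cnn1 (0.00), Ly6a (0.19), Masp1 (0.09), Tagln (0.12) and Thy1 (0.04). Of these, Ccn2 and Ly6a passed the threshold over that control and the others did not. The cause was not tested. Il1r1, close to 0 throughout, was at -0.01 with DESeq2 and with RLE scaling, at -0.00 with the filter of at least 1 CPM and without mitochondrial and rRNA genes, and at -0.04 to 0.11 with one library left out, below 0 without TGFb1 + IL1b replicate 1, TGFb1 replicate 2 or TGFb1 replicate 3. No paired analysis was possible because the labels give no replicate numbers. Genes with few counts, such as Traf1, Tnip3 and Ccl20, are limited by depth.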
